A study of Homo sapiens with 4 samples.

Results

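ERCC5 and 9 further genes of nucleotide excision repair were followed through 4 RNA libraries of HEK293T cells. The genes are ERCC1, ERCC2, ERCC3, ERCC4, ERCC5, ERCC6, ERCC8, XPA, XPC and DDB2, taken by symbol out of 16489 gene names in the deposited tables. The set was chosen by the measured miR-34a over control ratios of these libraries, in which ERCC5 was among the highest of the pulldown, so the members' ratios are a description and no test was made of them. HEK293T is an embryonic kidney line of human origin that expresses SV40 large T antigen. In the pulldown arm RNA was recovered from these cells with biotin-tagged miR-34a or with a control that the labels call NC. In the total RNA arm the cells had received either a miR-34a mimic, a synthetic duplex that supplies the microRNA, or an NC mimic. The study set both ways of finding miR-34a targets side by side. All 4 groups are HEK293T, with time, dose and the nature of NC not given in the sources used here. There is 1 library per group, and differences between libraries therefore have no replicate check.

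Nucleotide excision repair removes bulky lesions such as ultraviolet photoproducts by cutting out the damaged strand on both sides. XPC and DDB2 find lesions across the genome, while ERCC6 and ERCC8 act where RNA polymerase has stalled on a transcribed strand. ERCC3 and ERCC2 are the helicases of TFIIH that open the duplex, XPA checks the damage, ERCC5 cuts on the 3′ side, and the ERCC4 and ERCC1 pair cuts on the 5′ side. XPC and DDB2 are known targets of p53, which also induces miR-34a, and large T antigen binds p53. A microRNA guides silencing mainly through its seed, bases 2 to 8, and often lowers the level of the RNAs it binds.

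The mature sequences of miR-34a are shown because both arms of the study were built on this RNA; which of them was labelled or supplied is not stated in the labels. They are RefSeq sequences of GRCh38.p14, chromosome 1, minus strand, 9151735 to 9151756 for 5p and 9151693 to 9151714 for 3p, with the seed in capitals.
hsa-miR-34a-5p: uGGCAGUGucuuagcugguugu
hsa-miR-34a-3p: cAAUCAGCaaguauacugcccu
The perfect complement of the 5p seed is CACUGCC and that of the 3p seed GCUGAUU. Transcript sequences were not used here, so the members were not searched for these sites.

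The control pulldown held 306996 reads and the miR-34a pulldown 546180, against 45493090 reads of control and 42679778 of mimic total RNA. A gene was counted as measured with at least 20 reads in the pair of libraries, which left 6253 genes in the pulldown and 14787 in the mimic comparison. Each log2 ratio below sets the miR-34a library over its control after TMM scaling, a scaling on the bulk of genes, and brackets give the 95% interval from counting error alone. Genes were called higher or lower, beyond counting error, if that interval excluded 0, which is a ratio of 1. The median gene was at 0.11 in the pulldown and at 0.00 with the mimic. Of 11 genes typical of HEK293T, all 11 were listed in total RNA, from 59 (PAX2) to 40276 (KRT8) control reads, with VIM at 28866. Of 15 markers of blood, liver, fibroblast and muscle, 10 were listed there, from 2 (ALB) to 1052 (COL1A1) control reads. PTPRC, CD3E, APOA1, TTR and DCN were not listed. The read ranges of both sets overlap. Farthest from 0 with the mimic were IRS4 (-5.87), EYA1 (-0.87) and NEFL (0.86) of the HEK293T genes, and DES (2.43), CD14 (-1.47) and ACTA1 (-1.16) of the others, the last pair with intervals that hold 0. In the pulldown these were GATA2 (1.29), CDH2 (0.53) and VIM (-0.45), and COL1A1 (-0.56) as the single measured marker of the others. The intervals of CDH2 and COL1A1 hold 0. Of 39 published miR-34a targets, 5 of 21 measured were higher in the pulldown and 12 of 36 were lower with the mimic, where 13 were higher. Among all measured genes 7.08% were higher in the pulldown, and 23.1% were lower and 25.3% higher with the mimic. The 3 farthest from 0 were PDGFRA (4.99), VCL (-4.14) and MYCN (4.09) in the pulldown, and MYCN (2.60), IL6R (1.63) and CD274 (1.44) with the mimic, the last with an interval that holds 0.

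ERCC5, the 3′ nuclease, was the member that differed most. It had 1 read in the control pulldown and 48 in the miR-34a pulldown, and 691 and 506 reads in control and mimic total RNA. In CPM, reads scaled to the library total, the order from low to high was 3.26 in the control pulldown [0.0032 to 30.5], 11.9 in mimic total RNA [10.4 to 13.4], 15.2 in control total RNA [13.6 to 16.9] and 87.9 in the miR-34a pulldown [56.3 to 131]. Counting intervals of the control pulldown and both total RNA libraries leave the first place in that order undecided, the 2 total RNA intervals do not overlap each other, and the miR-34a pulldown stands above the other libraries.

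The pulldown log2 ratio of ERCC5 was 4.79 [1.44 to 14.8], a 27.6-fold difference and the fifth highest of the 6253 measured genes. Transcripts lacking control reads have no row, so genes without any control read are outside that rank. With a single control read, the upper end of the interval carries little information. In the mimic comparison ERCC5 was lower, at -0.33 [-0.57 to -0.09], or 0.79 times its control level, and 12.0% of measured genes had a lower ratio. The gene lies on chromosome 13 from 102846032 to 102875995 (GRCh38.p14).

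Reads of ERCC5 cannot be fully told apart from those of BIVM-ERCC5, a read-through gene on the same chromosome (102807146 to 102875995) whose annotated span takes in all of ERCC5. BIVM-ERCC5 had 5 reads in the control and 27 in the miR-34a pulldown, at 1.64 [-0.34 to 4.38], which is not beyond counting error. In total RNA it had 646 and 512 reads, at -0.22 [-0.46 to 0.02]. Adding both names together gave 6 and 75 pulldown reads and a log2 ratio of 2.85 [1.19 to 5.19], a 7.2-fold difference in place of 27.6. The summed total RNA counts were 1337 and 1018, at -0.28 [-0.44 to -0.11]. ERCC5 was thus higher in the pulldown and lower with the mimic on either count, but the size of its pulldown ratio rests on how a handful of control reads were assigned. BIVM alone had 1301 control and 1000 mimic reads over its 2 transcripts in total RNA and was not listed in the pulldown.

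**Figure D1:**
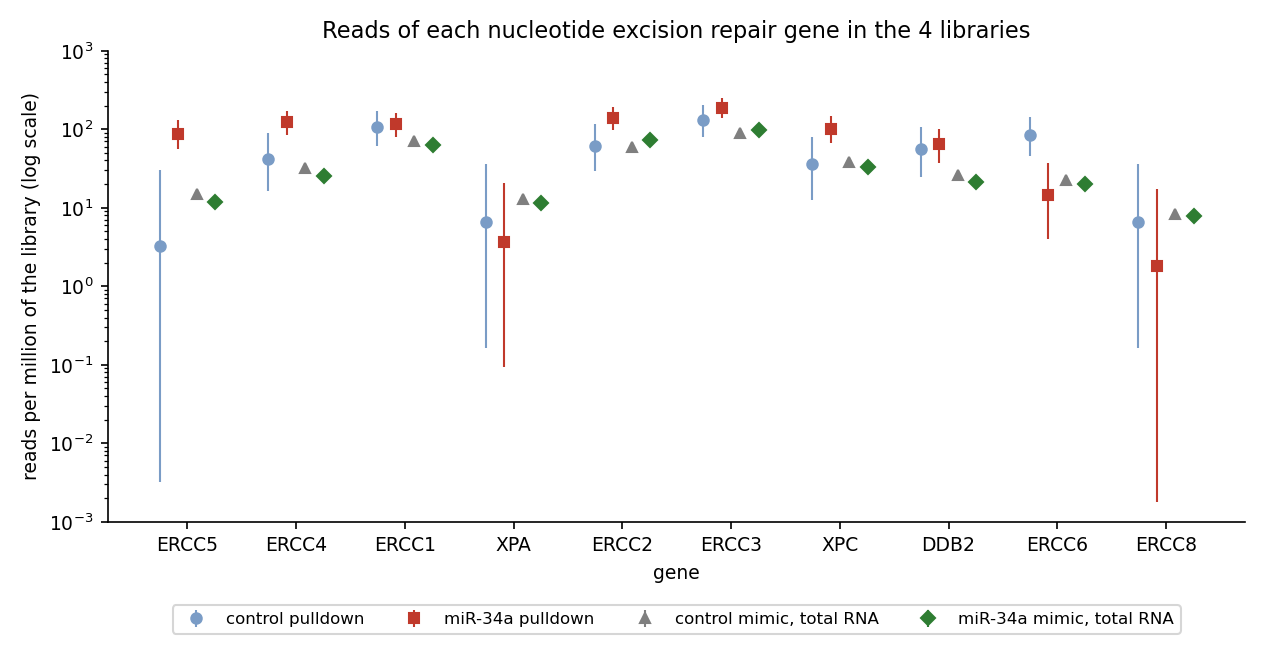
CPM (reads scaled to the library total) on a log axis for the 10 genes. Points are single libraries and bars are exact 95% Poisson intervals on counts divided by 2; ERCC5 in the miR-34a pulldown (87.9) stands above its other 3 libraries, and ERCC6 in the control pulldown (84.7) stands above its other 3.

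The 5′ nuclease is a pair of proteins. The calls of its genes differed in the pulldown, but their counting intervals overlap. ERCC4, the catalytic subunit, had 13 reads in the control and 67 in the miR-34a library, at 1.57 [0.34 to 3.05] or 2.97-fold. ERCC1, its DNA-binding partner, had 33 and 63 reads, at 0.14 [-0.77 to 1.09], which is not beyond counting error. With the mimic both were lower: ERCC4 went from 1471 to 1085 reads, at -0.32 [-0.48 to -0.16], close to ERCC5. ERCC1 went from 3182 to 2686 reads, at -0.13 [-0.23 to -0.02]. ERCC4 lies on chromosome 16 (13920154 to 13952348) and ERCC1 on chromosome 19 (45407334 to 45451547), where POLR1G overlaps it.

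The TFIIH helicase genes were the 2 of 10 members that stood higher with the mimic, where 25.3% of all measured genes were higher. ERCC2 had 2721 control and 3108 mimic reads, at 0.31 [0.20 to 0.41], or 1.24-fold. ERCC3 had 4080 and 4205 reads, at 0.16 [0.07 to 0.25], or 1.12-fold. Both lie below 0 on the deposited RPKM scale, at -0.34 and -0.48, where the median gene is at -0.65. That scale does not follow the library totals. In the pulldown ERCC2 had 19 and 76 reads, at 1.20 [0.15 to 2.40], and ERCC3 40 and 103 reads, at 0.57 [-0.20 to 1.39]. ERCC2 is on chromosome 19 (45349837 to 45370573), where the span of KLC3 overlaps it, and ERCC3 on chromosome 2 (127257290 to 127294144).

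XPA, the scaffold that verifies damage, was too thinly covered in the pulldown for a ratio, with 2 reads in either library. In total RNA it had 584 control and 492 mimic reads, at -0.13 [-0.38 to 0.12], within counting error. Its span on chromosome 9 (97654398 to 97697340) overlaps NCBP1.

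Of the genes that find lesions across the genome, XPC was higher in the pulldown, with 11 and 55 reads, at 1.53 [0.18 to 3.17] or 2.88-fold. DDB2 had 17 and 35 reads, at 0.25 [-1.01 to 1.62], and is not beyond counting error. With the mimic both were lower, XPC from 1740 to 1410 reads, at -0.19 [-0.33 to -0.04], and DDB2 from 1174 to 915, at -0.24 [-0.42 to -0.06]. XPC lies on chromosome 3 (14145147 to 14178601) and DDB2 on chromosome 11 (47214454 to 47239217).

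Of the genes of transcription-coupled repair, ERCC6 stood opposite to ERCC5. This chromatin remodeller, mutated in Cockayne syndrome, had 26 reads in the control and 8 in the miR-34a pulldown, a log2 ratio of -2.50 [-4.57 to -0.80] or 0.177 times the control. Only 0.368% of measured genes had a lower ratio. With the mimic it had 1041 and 847 reads, at -0.18 [-0.37 to 0.01], just within counting error; scaled on library totals it was lower, at -0.20 [-0.39 to -0.02]. ERCC6 lies on chromosome 10 (49434881 to 49539538) and holds PGBD3, which had 2 and 3 pulldown reads and 190 and 158 reads in total RNA. ERCC8, the substrate receptor of a CUL4 ubiquitin ligase, on chromosome 5 (60866454 to 60945070), had 2 and 1 reads in the pulldown and was not measured there. In total RNA it had 383 and 336 reads, at -0.07 [-0.38 to 0.23].

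**Figure D2:**
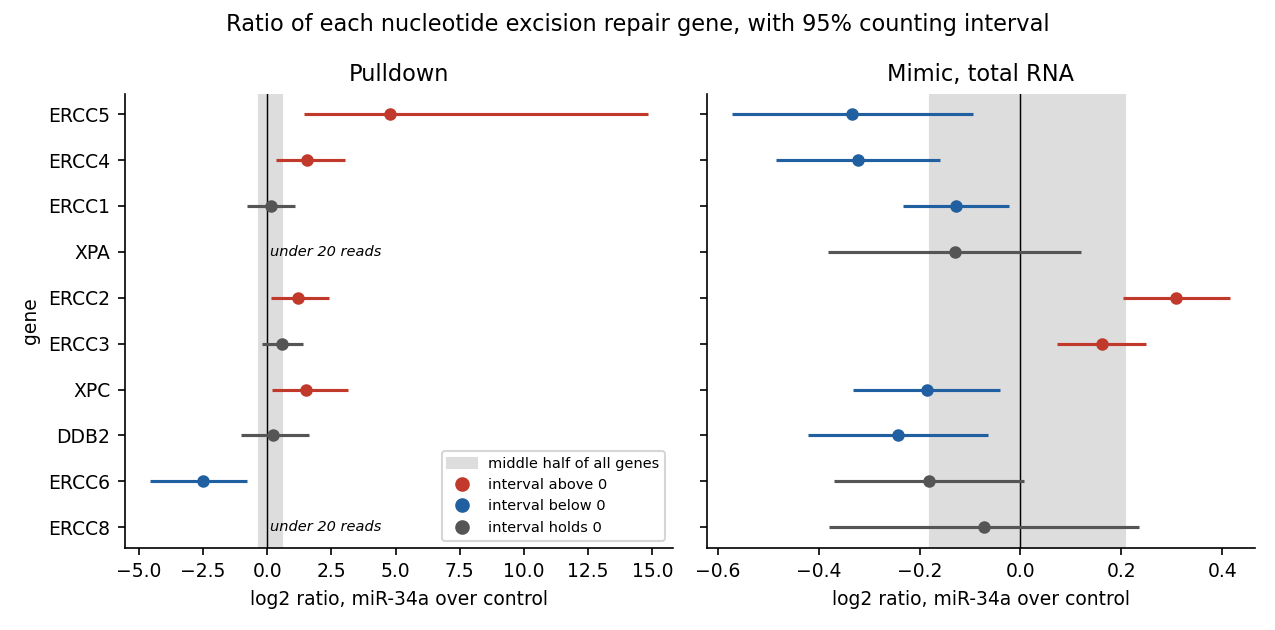
Log2 ratio of miR-34a over control for each gene in the pulldown (left) and the mimic comparison (right), with different axis ranges; bars are 95% counting intervals and the grey band runs from the lower to the upper quartile of all measured genes. In the pulldown ERCC5 (4.79), ERCC4, XPC and ERCC2 lie above 0 and ERCC6 (-2.50) below, while with the mimic the values run from -0.33 to 0.31.

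Counted together, 8 of the 10 members were measured in the pulldown, 4 of them higher and 1 lower beyond counting error. The shares among all measured genes were 7.08% higher and 3.66% lower. All 5 also differed by at least 2-fold, as did 4.83% of all genes upward and 2.13% downward. The members' median was 0.89, against 0.11 for all genes. All 10 were measured with the mimic, 2 higher and 5 lower, against 25.3% and 23.1% of all genes. Their median was -0.15, and 0 members differed by 2-fold there, against 3.29% of all genes upward and 1.03% downward. ERCC2 was higher in both comparisons, ERCC5, ERCC4 and XPC were higher in the pulldown and lower with the mimic, and ERCC6 was lower in the pulldown and within counting error with the mimic. The members were chosen on these ratios, so nothing is read from how the counts compare with all genes.

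Counting intervals of transcripts of the same gene overlapped. The 2 transcripts of XPC had 4 and 30 reads (NM_004628) and 7 and 25 reads (the non-coding NR_027299) in the pulldown, with log2 ratios of 2.11 [0.01 to 5.28] and 1.04 [-0.74 to 3.28]. Those of ERCC2 had 13 and 56 reads (NM_000400) and 6 and 20 (NM_001130867), at 1.31 [0.05 to 2.81] and 0.94 [-1.02 to 3.44]. The 3 transcripts of ERCC1 lay at 0.79, -0.02 and -0.35, each with an interval that holds 0. Transcripts of a gene share most of their exons, so their counts are not independent. Where every gene was counted by its transcript with the most reads and the libraries were scaled again on those counts, ERCC4 and ERCC5 were higher in the pulldown. XPC and ERCC2 then lay at 2.06 [-0.05 to 5.23] and 1.26 [0.00 to 2.75], above their summed ratios but with intervals that just hold 0.

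**Figure D3:**
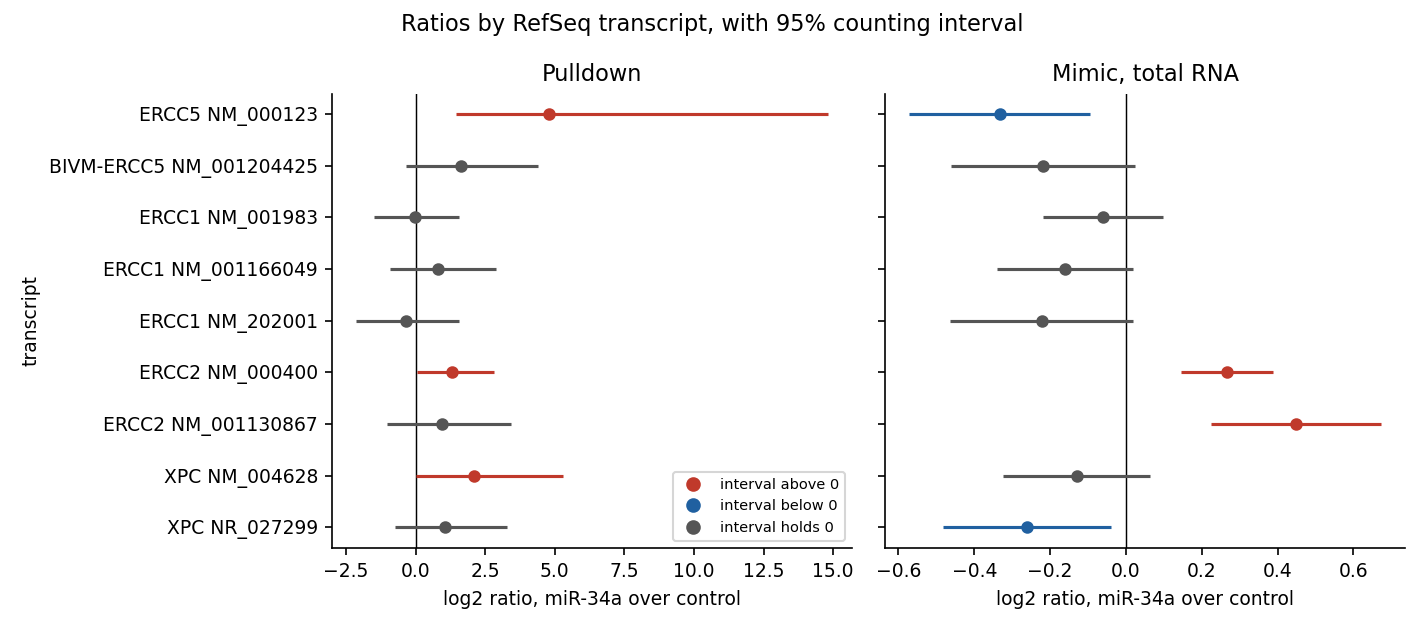
Log2 ratios with 95% counting intervals by RefSeq transcript for ERCC5, the read-through BIVM-ERCC5, ERCC1, ERCC2 and XPC, in the pulldown (left) and the mimic comparison (right). In the pulldown all intervals of one gene's transcripts overlap, and with the mimic both ERCC2 transcripts lie above 0, at 0.27 and 0.45.

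Total RNA gives a second reference for each pulldown library: control mimic for the control pulldown and miR-34a mimic for the miR-34a pulldown. These are cells of the other arm, and the labels do not give their RNA as the input of a pulldown. Shares of library totals are used here, within a gene, so that transcript length cancels. At its share of control total RNA, ERCC5 would have had 4.66 reads in the control pulldown, where 1 was found. At its share of mimic total RNA it would have had 6.48 reads in the miR-34a pulldown, where 48 were found, a log2 ratio of pulldown over total RNA of 2.89 [2.22 to 3.50]. ERCC4 had 67 reads against 13.9, at 2.27 [1.72 to 2.77], XPC 55 against 18.0, at 1.61 [1.0 to 2.16], and DDB2 35 against 11.7, at 1.58 [0.80 to 2.27].

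For ERCC4, XPC and ERCC2 the control pulldown lay near the total RNA share, at 0.39 [-0.99 to 1.48], -0.09 [-1.62 to 1.08] and 0.05 [-1.05 to 0.95]. ERCC1, ERCC2 and ERCC3 lay at 0.87 to 0.94 in the miR-34a pulldown, with intervals above 0. DDB2 was high against total RNA in the control pulldown too, at 1.10 [-0.07 to 2.06]. ERCC6 was the reverse case: the control pulldown held 26 reads against 7.02 at the total RNA share, at 1.89 [0.97 to 2.67], and the miR-34a pulldown 8 against 10.8, at -0.44 [-2.32 to 0.93]. The interval of the control lies above 0 and that of the miR-34a library, from 8 reads, holds 0. Over the 6239 genes measured in both comparisons the median pulldown over total RNA was -0.14 in the control and -0.07 in the miR-34a libraries, and for the 8 measured members it was 0.46 and 1.26.

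**Figure D4:**
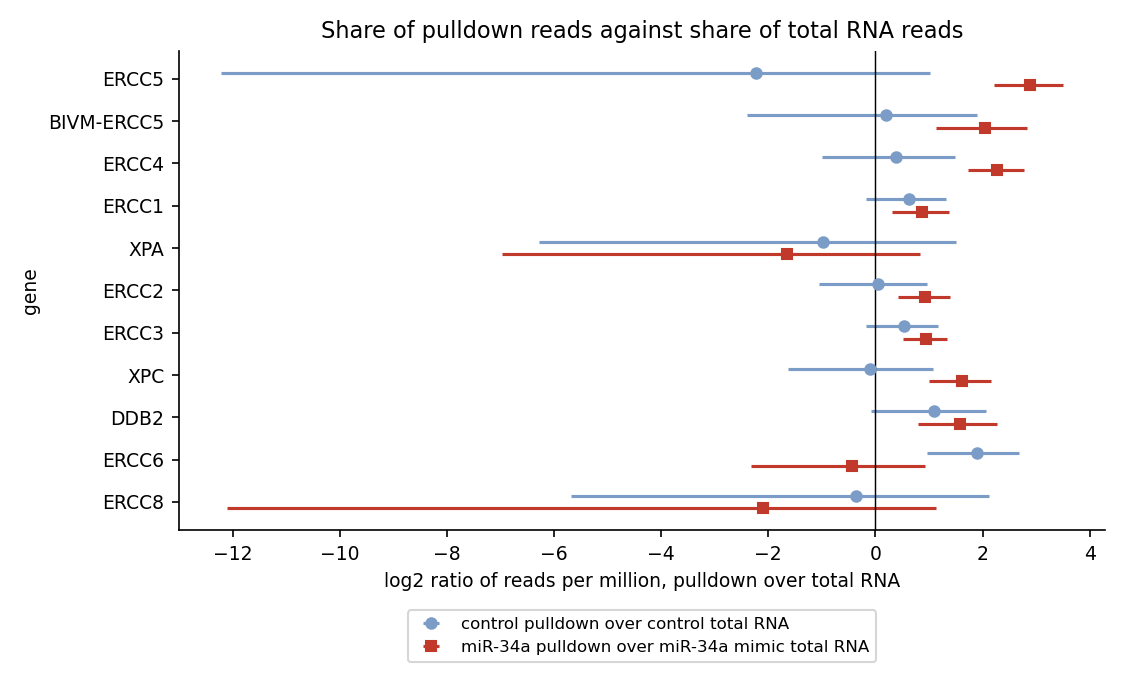
Log2 ratio of CPM in each pulldown library over total RNA, with 95% counting intervals. The control pulldown is set over control mimic total RNA and the miR-34a pulldown over miR-34a mimic total RNA. In the miR-34a pulldown ERCC5 (2.89), ERCC4, BIVM-ERCC5 (2.04), XPC and DDB2 lie farthest to the right, while ERCC6 lies to the right only in the control pulldown (1.89).

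The other genes of the pathway lay within counting error in the pulldown where they were measured. A list of 38 other nucleotide excision repair genes had 26 measured in the pulldown. Of these 0 were higher and 0 lower beyond counting error, beside 7.08% and 3.66% of all measured genes. Their median was 0.02, against 0.11 for all genes. Intervals on counts divided by 2 may be too wide here, so nothing is read from the lack of calls among these genes. The farthest from 0 were CUL4A, a ligase scaffold, at -1.42 [-3.10 to 0.15], its partner RBX1 at 1.20 [-1.12 to 4.48] and the polymerase subunit POLD4 at -0.80 [-2.61 to 1.02]. Some were more deeply covered than any member: DDB1, the partner of DDB2, had 280 and 454 reads, at -0.10 [-0.41 to 0.22], and the polymerase POLE 217 and 451, at 0.26 [-0.08 to 0.60]. The TFIIH core subunit genes GTF2H1 and GTF2H4 lay at 0.07 and -0.21. Of 15 measured base excision repair genes 2 (13.3%) were higher, beside 7.08% of all genes: UNG, which removes uracil, at 1.01 [0.17 to 1.92], and PARP1, a strand break sensor, at 0.75 [0.46 to 1.05]. MUTYH at 1.37 and PARP2 at 1.01, the other 2 farthest from 0, had intervals that hold 0. Of 5 measured mismatch repair genes 2 (40.0%) were higher, among them MSH6 at 0.60 [0.08 to 1.13]; MSH3 at 1.53 and PMS2 at 1.20 had intervals that hold 0.

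Genes that sequencing panels for hereditary cancer commonly carry stood high in the miR-34a pulldown, and 7 of the 10 members are among them. The list has 94 genes and includes ERCC2, ERCC3, ERCC4, ERCC5, XPA, XPC and DDB2, but not ERCC1, ERCC6 or ERCC8, nor any of the 38 other excision repair genes. It was drawn up with earlier results of these data known. Of the 87 listed genes that are not members, 74 were measured, and 36 of them (48.6%) were higher and 0 lower beyond counting error, with a median of 1.20. All measured genes had 7.08% higher and 3.66% lower, with a median of 0.11. SDHD, a subunit of succinate dehydrogenase, reached 4.31 [2.14 to 8.14], the helicase BRIP1 4.16 [1.57 to 9.51] and the receptor RET 3.33 [1.37 to 6.43]. The members on the list gave 4 higher of 6 measured, and those off it 0 higher and 1 lower of 2. MSH6 is also on the list, UNG and PARP1 are not. Against total RNA, the 74 genes had a median of -0.31 in the control and 0.94 in the miR-34a pulldown, so the list was high in 1 library. Its part in the ratios of ERCC5, ERCC4, XPC and ERCC2 was not tested.

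**Figure D5:**
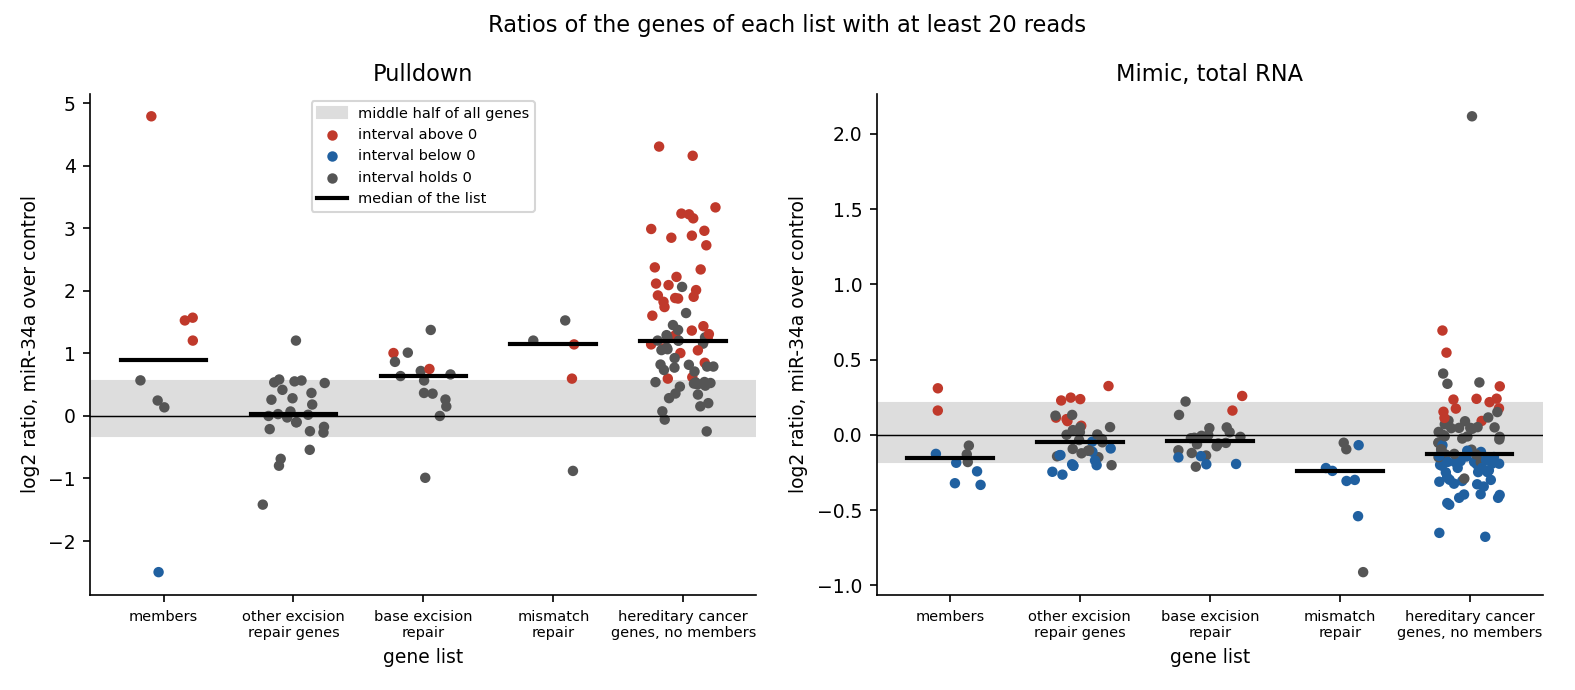
Log2 ratios of measured genes in 5 lists, in the pulldown (left) and the mimic comparison (right), with different axis ranges; each point is a gene, black lines are list medians and the grey band runs from the lower to the upper quartile of all measured genes. In the pulldown the other excision repair genes centre on 0.02 and the hereditary cancer genes on 1.20, while with the mimic all 5 medians lie between -0.24 and -0.04.

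With the mimic, all 38 of the other excision repair genes were measured. Of these 8 were higher and 12 lower, which is 21.1% and 31.6% against 25.3% and 23.1% of all genes, and the median was -0.05. Among the partners of lesion recognition, 3 of 7 were higher, among them RAD23B (0.11) and CETN2 (0.24), which act with XPC. DDB1 (-0.05) and CUL4B (-0.25) were lower. XAB2, which binds XPA, was higher at 0.10 [0.01 to 0.20].

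The other TFIIH genes were mostly within counting error with the mimic, where 25.3% of all genes were higher and 23.1% lower. Of 8 core and kinase subunit genes, 0 were higher and 1, GTF2H5, was lower, at -0.21 [-0.32 to -0.09]; the other 7 lay between -0.14 and 0.13. RPA1 (-0.17) and RPA2 (-0.14), which coat the opened strand, were lower.

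Among the 15 genes of repair synthesis 6 were lower and 4 higher with the mimic, beside 23.1% and 25.3% of all genes. The sliding clamp PCNA was lower at -0.27 [-0.32 to -0.21], from 13335 to 10233 reads, as were POLD3 (-0.20), POLE3 (-0.20), POLE (-0.14), RFC5 (-0.11) and RFC3 (-0.09). POLD4 was higher at 0.32 [0.16 to 0.49] and POLE4 at 0.25 [0.13 to 0.37], with POLD2 (0.09) and POLD1 (0.06). The ligase gene LIG1 was lower at -0.20 [-0.28 to -0.12]. All 8 higher genes of the 38 lie below 0 on the deposited RPKM scale. That scale was applied to the read ratios as the same offset for every gene. The change of sign follows from the size of that offset and says nothing about these genes in particular. The offset of that scale is the same in both comparisons and does not follow the library totals.

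The counts of the other lists with the mimic stand beside 25.3% of all genes higher and 23.1% lower. Of 9 measured mismatch repair genes 6 were lower and 0 higher, with a median of -0.24, among the farthest MLH3 (-0.91, with an interval that holds 0) and MSH5 at -0.54 [-0.75 to -0.33]. Base excision repair had 2 higher and 4 lower of 24, with a median of -0.04; MPG was highest at 0.26 [0.16 to 0.36], and APLF (0.22) and NEIL1 (-0.21) had intervals that hold 0. Of the 85 measured hereditary cancer genes other than members, 40 were lower and 12 higher with the mimic (47.1% and 14.1%), with a median of -0.13. Farthest from 0 were EPCAM (2.12 [-0.21 to 5.39]), RHBDF2 (0.69) and GPC3 (-0.68).

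The genes most like ERCC5 over both comparisons were found by the distance between the pairs of log2 ratios, among 6239 genes and over the same 4 libraries. The nearest was NOTCH4, a Notch receptor, at a distance of 0.12, with 2 and 103 pulldown reads and ratios of 4.89 and -0.27. It was followed by the transcription factor FOXA1 (5.18 and -0.40), the kinase MAP3K1 (4.33 and 0.01), SDHD (4.31 and 0.00) and the DNA demethylation enzyme TET2 (5.38 and -0.33). Each of these 5 genes had 1 to 3 reads in the control pulldown. With the mimic FOXA1 and TET2 were lower beyond counting error, while NOTCH4, MAP3K1 and SDHD were within it.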

How the data were processed

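Bowtie2, edgeR and the build hg38 are named in the submitters' processing notes, without versions or roles, with the counter, filters and use of strand not given in the sources used here. Whole-number read counts and RPKM values per RefSeq transcript were deposited by the authors. Columns NC and PD of the pulldown table and NC and mimic of the mimic table were taken as the 4 libraries. The lowest control count per transcript is 1, so a transcript lacking control reads has no row. The authors' deposited RPKM values were not used to compare genes: a read of TTN, a very long transcript, is worth 0.0575 RPKM and one of GAPDH 0.0336. On that scale the worth of a read, miR-34a over control, was -0.53 in log2 in both comparisons. Library totals, miR-34a over control, differed by 0.83 in the pulldown and -0.09 with the mimic, so the scale does not follow them.

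Reads were summed per gene name, and names turned into dates were resolved by accession (98.8% of pulldown and 98.3% of mimic accessions matched the GRCh38.p14 RefSeq table). Totals were scaled by TMM (edgeR 4.0.16, R 4.3.3). Genes with at least 20 reads were measured. Intervals are exact conditional binomial (Clopper-Pearson), or exact Poisson for one library, at 95% (scipy 1.17.1), on counts divided by 2: among genes with 1 transcript and 2 to 9 reads, 96.0% of control mimic and 73.5% of control pulldown counts were even, as when pairs count as 2 reads; at 10 to 49 reads these shares were 81.9% and 52.3%, so most pulldown intervals may be too wide. They cover counting error only. Interval code was tested on simulated data in which every count was even. Real pulldown counts are not, so that test does not bear on the width of the pulldown intervals. With 1 library per group edgeR's and DESeq2's tests could not be run. A library at 0 was set to 3 reads.

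Members, lists, the rule for named genes and alternatives were chosen with earlier results of these data known. Named were all members, the 3 measured genes of each list farthest from 0, excision repair genes beyond counting error, and the 5 genes nearest ERCC5. Named after their values were seen were DDB1, POLE, GTF2H1 and GTF2H4 in the pulldown, PARP1, MSH6, KRT8, PAX2, ALB and the absent markers. COL1A1 in total RNA was also named after its value was seen. A few genes named by this rule are left out and not reported here.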

Additional observations from a re-analysis of the deposited data

How the results depend on the processing

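No paired analysis was possible because each group has 1 library, and no replicate could be left out. The pulldown ratio of ERCC5 was higher beyond counting error under every scaling and summing tried, and its mimic ratio lower; on deposited RPKM the mimic ratio was -0.98. That scale moves the median mimic gene from 0.00 to -0.65, puts ERCC2 at -0.34 and ERCC3 at -0.48, and gives 0 higher and 10 lower members, where 79.4% of all genes are lower. Of the 4 members higher in the pulldown, 2 (ERCC4 and ERCC5) were left with the transcript with the most reads and 2 (the same genes) with a 99% interval. At those settings 5.91% and 3.65% of all genes were higher. At least 100 reads left 1 measured member in the pulldown, ERCC3, with 0 higher and 0 lower. Of all genes 13.2% were higher and 6.49% lower there. Without the hereditary cancer genes 2 members were measured in the pulldown, 0 of them higher, and 3 with the mimic, 0 higher and 1 lower, since 7 members are removed. Of all genes left, 6.74% were higher in the pulldown, and 25.3% were higher and 23.0% lower with the mimic. The 5 members lower with the mimic were 3 (ERCC4, ERCC5 and DDB2) with the transcript with the most reads and 3 with a 99% interval. At those settings 20.7% and 17.4% of all genes were lower. Counts under library totals, DESeq2 size factors, undivided counts, added read-through reads and no minimum stayed within 1.5 times. ERCC6 joined the members lower with the mimic on library totals and on undivided counts (6 each). Of all genes 26.5% and 30.0% were lower there. ERCC3 joined the members higher in the pulldown on deposited RPKM and on undivided counts (5 each). Of all genes 14.3% and 15.5% were higher there. Counts of all genes higher and lower in the pulldown were 443 and 229, and 968 and 587 on undivided counts, 893 and 89 on deposited RPKM, 228 and 107 with a 99% interval, and 238 and 117 with at least 100 reads; with the mimic they were 3742 and 3412, and 365 and 11734 on deposited RPKM. The pulldown had 34 to 143 reads per measured member over both libraries, and a 1.48-fold ratio at 143 reads (ERCC3) was within counting error.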
